A study of Drosophila melanogaster with 6 samples.

Results

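The Rab genes of *Drosophila melanogaster* were examined in whole larvae of the third instar, with and without a knockdown of *Dctn1*, the gene of the p150 subunit of dynactin. Members were all entries of the deposited expression table whose symbol is Rab or RabX followed by a digit. This rule found 35 of 13858 genes, namely 33 Rab GTPases and 2 regulators that carry a Rab name, *Rab3-GEF* and *Rab3-GAP*. The study tested what loss of *Dctn1* does to neuromuscular function, and RNA-seq was used to look for the transcript changes that go with it. In knockdown larvae, a UAS-*Dctn1*-RNAi transgene was driven by *Act5C*-GAL4, a driver that is active in most cells, and control larvae carried the driver only, labelled as the Actin control. The labels name w1118 as the wild-type strain. All larvae were females fed on grape agar with yeast and were taken at 96 h, which the deposited design text counts from hatching and the paper's methods from egg laying. Each group has 3 libraries, each from a separate pool of whole larvae, with knockdown replicates numbered 1, 2 and 3 and control replicates numbered 2, 3 and 4.

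Rab proteins are small GTPases that give each membrane of the cell its identity. A guanine nucleotide exchange factor (GEF) loads a Rab with GTP, upon which the Rab binds effectors such as tethers and motor adaptors, and a GTPase activating protein (GAP) switches it off again. A lipid tail added by geranylgeranyl transferase lets Rabs attach to membranes, and inactive Rabs are drawn off the membrane by the GDP dissociation inhibitor. Dynein and dynactin carry many Rab-marked vesicles towards the minus ends of microtubules, among them Golgi-derived vesicles marked by Rab6 and late endosomes marked by Rab7. In neurons and at the larval neuromuscular junction, Rab3 acts on synaptic vesicles and the active zone, and Rab5 and Rab11 act in the recycling of membrane.

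Values of single libraries are listed throughout for control replicates 2, 3 and 4 in this order, then for knockdown replicates 1, 2 and 3. The targeted gene was lower in every knockdown library. *Dctn1* had an FPKM (a fragment count scaled by transcript length and by the mapped reads of the library) of 15.3, 15.2 and 12.5 in controls against 7.33, 7.96 and 6.85 in knockdown larvae, so that 51.5% of the control level remained (p = 0.1 in a two-sided exact permutation test, the lowest that 3 libraries against 3 allow). In the fit used for all genes, its log2 fold change was -0.94 (limma, adjusted p = 0.00737). By quantitative RT-PCR on larvae of both sexes, the paper reports a stronger reduction. All libraries held the transcripts of larval tissues, with every listed marker of neurons, body wall muscle, fat body, midgut and hemocytes above the level needed for testing. Of 10 male germ line markers, 9 were below that level and *bol* reached at most 21.2 FPKM. The summed FPKM of a library was set against the mean over the 6 libraries. It was 101.5% to 107% of this mean in controls and 94.2% to 98.0% in knockdown larvae, without overlap. Depth itself is unknown, because the lowest values of nearly silent genes had no common ratio between libraries. Differences were tested with limma on log2(FPKM + 0.1) for the 9978 genes with a mean of at least 0.5 FPKM, with Benjamini-Hochberg adjustment over all of them, and fold changes on this scale understate the change of genes with low values. Over all tested genes the log2 fold changes had a median of 0.16, or of -0.01 with libraries scaled by the median of ratios. A gene near 0.16 is thus at the centre of the transcriptome. The factors by which FPKM was divided in this scaling were 0.979, 0.992 and 0.854 in control libraries, against 1.12, 1.04 and 1.03 in knockdown libraries.

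Rab transcript levels in control larvae spanned a 295-fold range among the 28 members that passed the filter. *Rab11*, which marks recycling endosomes, was highest at 221 ± 13.2 FPKM (SD, n = 3 libraries). It was followed by *Rab7*, the late endosome Rab, at 197 ± 23.4 FPKM. *Rab5*, of the early endosome, had 160.1 ± 15.98 FPKM, and *Rab1*, which acts between the endoplasmic reticulum (ER) and the Golgi, had 159.8 ± 19.7 FPKM. *Rab2*, also a Golgi Rab, had 103 ± 12.6 FPKM. These 5 genes were the top 5 in each of the 6 libraries and held 64.0% of the summed Rab FPKM in controls and 62.2% in knockdown larvae. Of the 27 pairs of neighbours in the control order, 16 had overlapping ranges, among them *Rab11* with *Rab7*, *Rab7* with *Rab5* and *Rab5* with *Rab1*, while *Rab1* lay above *Rab2* in every control library. At the lower end, 11 tested members had a control mean under 10 FPKM, down to *Rab27* at 0.750 ± 0.191 FPKM. *Rab27*, *Rab26* (1.21 ± 0.0306 FPKM) and *Rab3* (4.74 ± 0.420 FPKM) are Rabs of regulated secretion with known roles in nerve terminals.

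**Figure D1:**
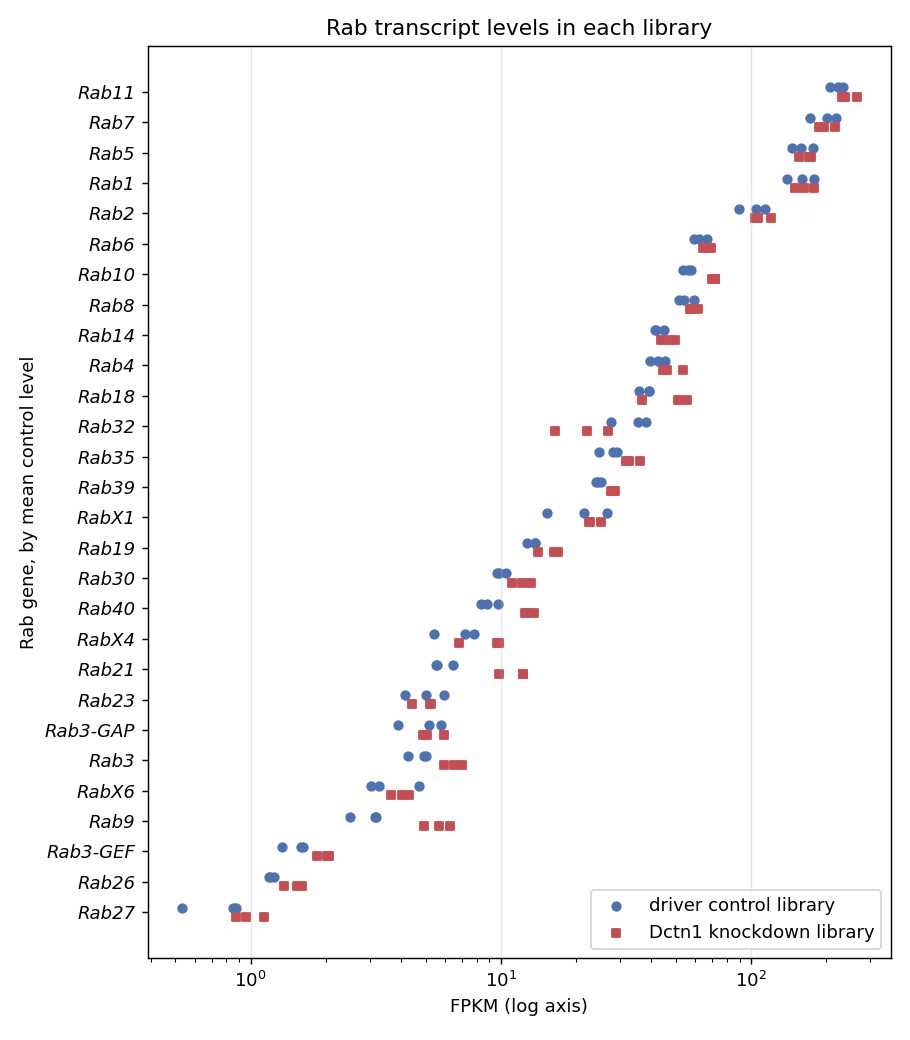
FPKM on a log axis of the 28 Rab genes that passed the filter, ordered by their mean control level, with 1 point for each of the 3 control libraries (circles) and 3 knockdown libraries (squares). Levels run from about 221 FPKM for *Rab11* to 0.750 FPKM for *Rab27* in controls, and the symbols of the groups are set apart most clearly for *Rab21* and *Rab9*.

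Most Rab genes lay near the centre of the transcriptome. Summed over all members, the FPKM was 1314 ± 102 in control and 1423 ± 57.96 in knockdown larvae (SD, n = 3 libraries), and the ranges of the groups overlapped. The median log2 fold change of the 28 tested members was 0.19, beside 0.16 for all tested genes, and 0.01 beside -0.01 after median-of-ratios scaling. Against the median of all genes, 16 members lay above and 12 below it, and 20 members lay within 0.2 of it on the log2 scale, as did 56.2% of all tested genes. At an adjusted p under 0.05, 3 of the 28 members were higher in knockdown larvae, namely *Rab21*, *Rab9* and *Rab40*, and 0 were lower. Over all tested genes 6.71% passed, with 5.06% higher and 1.65% lower (limma, 505 and 165 genes, or 161 and 160 genes after median-of-ratios scaling, when 1.61% were called as higher). By unadjusted p under 0.05, 6 members were higher and 1, *Rab32*, was lower, where 20.9% and 4.35% of all tested genes were. None of the 28 members also had an absolute log2 fold change above 1, the second threshold of the study, which 2.91% of all tested genes passed together with the first. In 11 members all knockdown libraries lay above all control libraries and in 1, *Rab32*, they lay below, whereas 28.8% and 4.66% of all tested genes were separated in these directions. Whole larvae were sequenced, so that a change in the share of a cell type and a change in RNA per cell cannot be told apart in any of these values.

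**Figure D2:**
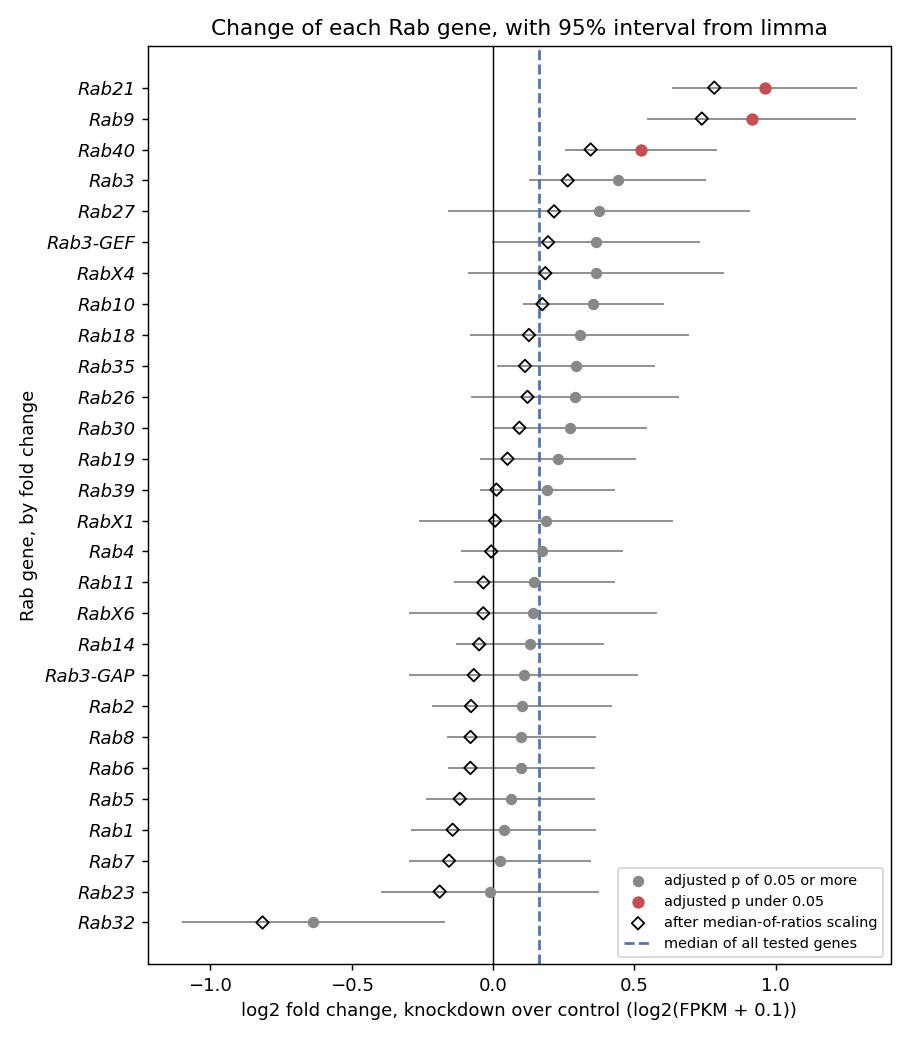
Log2 fold change of each tested Rab gene, knockdown over control, with its 95% interval from limma (lines), coloured where the adjusted p was under 0.05, and the value after median-of-ratios scaling (diamonds). *Rab21*, *Rab9* and *Rab40* stand at the top, *Rab32* alone at the bottom, and most other members lie near the dashed median of all tested genes at 0.16.

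*Rab21* had the largest increase of the family. Rab21 acts in endocytosis from the cell surface, and in flies it also takes part in the maturation of autophagosomes. The gene, with ID 3355163, lies on the minus strand of chromosome X from 23012140 to 23013409 of the BDGP6.54 annotation, which was used for all positions because the file gives none. Its FPKM was 6.45, 5.52 and 5.55 in control libraries, against 12.3, 12.3 and 9.84 in knockdown libraries. Every knockdown library was thus well above every control library, with knockdown replicate 3 the lowest of them. The means were 5.84 ± 0.528 FPKM and 11.5 ± 1.43 FPKM (SD, n = 3), a 1.97-fold difference. The log2 fold change was 0.96 (standard error 0.14, 95% interval of the fold 1.55 to 2.44, limma, adjusted p = 0.00909). It was 0.78 after median-of-ratios scaling (limma, adjusted p = 0.0223), and the adjusted p of the alternatives lay between 0.00899 and 0.0381, including each fit without 1 library.

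*Rab9*, which in mammals returns receptors from late endosomes to the Golgi, rose to a similar extent from a lower level. The gene (ID 35221) lies on the plus strand of 2L from 19432574 to 19435841. It had 3.16, 2.5 and 3.13 FPKM in control libraries, against 5.65, 6.25 and 4.92 FPKM in knockdown libraries. The groups did not overlap, and the means of 2.93 ± 0.373 and 5.61 ± 0.666 FPKM (SD, n = 3) differed 1.91-fold. The log2 fold change was 0.91 (standard error 0.16, 95% interval of the fold 1.46 to 2.43, limma, adjusted p = 0.0178). The adjusted p from limma was 0.0678 after median-of-ratios scaling and 0.105 after quantile normalization, with log2 fold changes of 0.74 and 0.69. It was 0.0518 without control replicate 2, 0.0629 without knockdown replicate 1 and 0.0754 without knockdown replicate 2.

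*Rab40* rose less. In mammals, Rab40 proteins differ from other Rabs by a SOCS box that links them to a ubiquitin ligase. The gene (ID 32195) lies on the minus strand of X from 12459796 to 12463112. Its FPKM was 8.8, 9.77 and 8.37 in control libraries, against 12.6, 12.7 and 13.6 in knockdown libraries, again without overlap. The log2 fold change was 0.52 (standard error 0.12, 95% interval of the fold 1.19 to 1.73, limma, adjusted p = 0.0387). Of the 3 calls, this one was lost under the most alternatives. The adjusted p from limma was 0.110 after median-of-ratios scaling and 0.104 after quantile normalization, and the gene just missed the threshold with a variance estimate without trend and robustness. It was 0.116 and 0.0736 without control replicates 2 and 4, and 0.123, 0.137 and 0.111 without knockdown replicates 1, 2 and 3.

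*Rab32* was the only tested member whose knockdown libraries all lay below the controls. Rab32, known in flies as lightoid, acts in the making of eye pigment granules and other lysosome-related organelles and in lipid storage. The gene (ID 35940) lies on the minus strand of 2R from 9177864 to 9186342. It had 35.5, 37.9 and 27.5 FPKM in control libraries, against 26.8, 16.5 and 22.2 FPKM in knockdown libraries. Control replicate 4 and knockdown replicate 1 nearly met. The mean in knockdown larvae was 0.649 times that in controls. The log2 fold change was -0.64 (standard error 0.20, 95% interval of the fold 0.466 to 0.889, limma, adjusted p = 0.103), which did not pass. After median-of-ratios scaling the log2 fold change was -0.82 (limma, adjusted p = 0.0576).

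*Sgs7*, *Sgs8*, *Sgs5* and *Fbp1*, picked from the marker lists after their values were seen, had a library order like that of *Rab32*. The salivary glue gene *Sgs7* had 13245, 14445 and 4653 FPKM in control libraries, against 3936, 1316 and 4097 FPKM in knockdown libraries. The fat body gene *Fbp1* had 2233, 4094 and 1199 FPKM in controls and 1415, 47.3 and 639 FPKM in knockdown libraries. *Sgs8*, also a glue gene, had 4305, 4882 and 1786 FPKM in controls, against 1317, 212 and 1014 FPKM in knockdown libraries. Its order was that of *Rab32* throughout. *Rab32*, *Sgs7*, *Sgs8*, *Sgs5* and *Fbp1* were all highest in control replicate 3 and lowest in knockdown replicate 2. No other gene of the glue and fat body lists was. Control replicate 3 was also the highest control for 47.1% of all tested genes. Over the tested genes, the deviations of control replicate 3 and knockdown replicate 2 from their group means correlated at -0.62. The share of all genes with both extremes was not counted. The 6 glue genes of the marker list summed to between 8684 and 25490 FPKM in controls and between 3288 and 9740 FPKM in knockdown larvae, and the 7 fat body markers to between 21540 and 22543 and between 21709 and 26560 FPKM. The lists were mixed. Of the glue list, knockdown libraries lay below all controls in 2 genes and above them in 1, *ng1*, and *Sgs4* had a log2 fold change of 0.44 with overlapping groups. Of the fat body list, knockdown libraries lay above all controls in 3 genes, *Lsp1alpha*, *Fbp2* and *Lsp1beta*, with log2 fold changes of 1.21, 1.15 and 0.99, and below them in 0. By adjusted p (limma), only *ng1* and *Lsp1beta* passed in these lists, and both were higher. Of the 7 midgut markers, *betaTry* and *Amy-p* passed and were lower. Whether the stage or the tissue share of the larvae has a part in the values of *Rab32* was not tested.

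**Figure D3:**
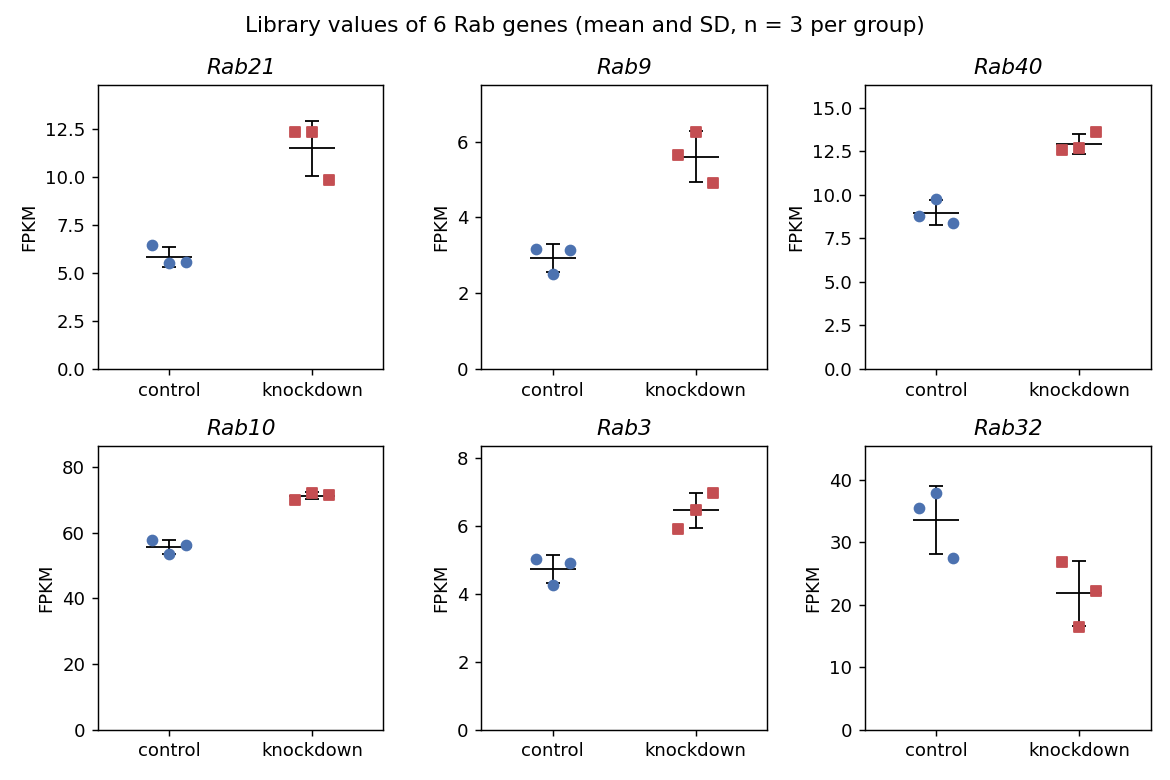
FPKM of 6 Rab genes in each control library (circles) and knockdown library (squares), with the mean and SD of each group (n = 3) and axes that start at 0. All 6 genes are from the 12 of 28 tested members whose groups do not overlap, beside 33.5% of all tested genes. Only *Rab21*, *Rab9* and *Rab40* had an adjusted p under 0.05.

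Rabs of delivery to the plasma membrane were all above 0 in log2 fold change, as were 74.2% of all tested genes. They lay between 0.10 and 0.44, with a median of 0.32 beside 0.16 for all tested genes. By adjusted p (limma), 0 of 6 passed. *Rab10*, *Rab3* and *Rab35* had an unadjusted p under 0.05, beside 20.9% of all tested genes that were higher by it. Knockdown libraries lay above all controls in *Rab10*, *Rab3*, *Rab26* and *Rab35*, and in 28.8% of all tested genes. *Rab10*, which in flies directs basement membrane secretion to the basal side of epithelia, had 57.7, 53.4 and 56.1 FPKM in control libraries, against 70.1, 72.1 and 71.5 FPKM in knockdown libraries. These groups did not overlap, with a log2 fold change of 0.35 (95% interval of the fold 1.08 to 1.52, limma, adjusted p = 0.0917). *Rab3*, the synaptic vesicle Rab, had 5.04, 4.26 and 4.92 FPKM across controls, against 5.93, 6.49 and 6.98 FPKM in knockdown libraries. All knockdown libraries were above all controls, and the log2 fold change was 0.44 (95% interval of the fold 1.09 to 1.69, limma, adjusted p = 0.0941). *Rab26*, linked in mammals and flies to synaptic vesicles and autophagy, also had separated groups, at 1.18, 1.24 and 1.2 FPKM against 1.36, 1.53 and 1.61 FPKM. *Rab27*, another Rab of regulated secretion, overlapped between groups, with control values from 0.53 to 0.87 FPKM and knockdown values from 0.87 to 1.13 FPKM. *Rab35*, which acts in recycling to the plasma membrane and in actin organisation, ranged from 24.7 to 29.01 FPKM in control and from 31.6 to 36.1 FPKM in knockdown larvae (log2 fold change 0.29). *Rab8*, a Rab of Golgi to surface transport, had overlapping groups and a log2 fold change of 0.10. After median-of-ratios scaling the 6 values had a median of 0.15 and that of *Rab8* became -0.08.

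Of the 10 neuron markers, all 10 had a positive log2 fold change with a median of 0.35, and 6 had knockdown libraries above all controls, beside 74.2% and 28.8% of all tested genes. After median-of-ratios scaling the median was 0.17 and 3 were negative. The pan-neuronal genes *elav* and *fne* lay below the median of all genes, at 0.06 and 0.01, and at -0.11 and -0.17 after scaling, and *Csp* went from 0.17 to -0.01. They summed to between 192 and 224 FPKM in control and between 225 and 258 FPKM in knockdown larvae, and 0 of 10 passed by adjusted p (limma), with 6 at an unadjusted p under 0.05, beside 20.9% of all tested genes that were higher by it. The active zone gene *brp* was at 2.82, 2.31 and 2.62 FPKM in control libraries, against 2.93, 3.49 and 4.12 FPKM in knockdown libraries. Whether a larger share of nervous tissue has a part in the values of *Rab3*, *Rab26* and *Rab27* was not tested.

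The ER and Golgi Rabs, which held 29.4% of the Rab FPKM in controls, had log2 fold changes between 0.04 and 0.31, and 0 of 6 passed by adjusted p or had an unadjusted p under 0.05 (limma). For *Rab1*, an antisense RNA shares 41.1% of its exon bases, and whether counting used strand is not given. *Rab1* had 160.4, 179 and 139.7 FPKM in control libraries, against 178, 163 and 149.99 FPKM in knockdown libraries. The groups overlapped (95% interval of the fold 0.818 to 1.29). *Rab2* overlapped as well, at 105, 114 and 89.3 FPKM against 120, 103 and 107 FPKM. *Rab6*, whose vesicles are moved by dynein and kinesin, had 61.9, 66.8 and 59.3 FPKM across controls, against 69.1, 64.2 and 67.9 FPKM in knockdown libraries, with a 95% interval of the fold from 0.894 to 1.28. *Rab18*, found on lipid droplets and the ER, was uneven, at 55.4 and 51.1 FPKM in knockdown replicates 1 and 2 but at 36.6 FPKM in knockdown replicate 3, within the control range of 35.6 to 39.2 FPKM. Its log2 fold change was 0.31 with all libraries and 0.49 without knockdown replicate 3 (limma, adjusted p = 0.102). *Rab30*, a Golgi Rab, had separated groups, with 9.67 to 10.5 FPKM in control and 11.1 to 13.2 FPKM in knockdown larvae. So did *Rab19*, with 12.8 to 13.8 FPKM against 14.1 to 16.9 FPKM, beside 28.8% of all tested genes separated in this direction. The log2 fold changes of *Rab30* and *Rab19* were 0.27 and 0.23, or 0.09 and 0.05 after median-of-ratios scaling.

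Apart from *Rab21*, the Rabs of early and recycling endosomes lay close to the median of all genes. *Rab5*, which controls fusion of early endosomes, had 158, 177 and 145 FPKM in control libraries, against 170.3, 156 and 175 FPKM in knockdown libraries, so that the groups overlapped (95% interval of the fold 0.849 to 1.28). *Rab11* had 207, 233 and 224 FPKM across controls, against 238, 232 and 265 FPKM in knockdown libraries, of which replicate 3 was the highest (95% interval of the fold 0.908 to 1.35). *Rab4*, of fast recycling, and *Rab14*, of Golgi to endosome and phagosome traffic, had log2 fold changes of 0.17 and 0.13 with overlapping groups. Among Rabs of late endosomes, *Rab7* had 200.4, 219 and 172 FPKM across controls, against 217, 188 and 196 FPKM in knockdown libraries. This gene, through which late endosomes are joined to dynein and dynactin, had a log2 fold change of 0.02 (95% interval of the fold 0.814 to 1.27, limma, adjusted p = 0.931). *Rab39*, a Rab of lysosomes, was steady within each group, at 24.1 to 25.2 FPKM in control and 27.5 to 28.6 FPKM in knockdown larvae (log2 fold change 0.19, limma, adjusted p = 0.288). Under median-of-ratios scaling the signs of *Rab5*, *Rab11*, *Rab4*, *Rab14* and *Rab7* all turned to values between -0.16 and -0.01.

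The remaining tested GTPases had overlapping groups. *RabX1* ranged from 15.3 to 26.5 FPKM in control and from 22.5 to 25.2 FPKM in knockdown larvae, with control replicate 4 far below the other controls. That library was the lowest control for 17 of the 28 tested members and for 61.6% of all tested genes. *RabX6* had 3.04 to 4.73 FPKM against 3.65 to 4.31 FPKM, and 36.2% of its exon bases are shared with *Vti1a* on the other strand, so that reads could have been assigned to either gene if strand was not used in counting. *RabX4* had 5.39 to 7.78 FPKM against 6.83 to 9.82 FPKM. For *RabX4* the file lists 3 transcripts, 2 of them added by the sequencing centre, and the gene shares exon bases with *Kaz* on the same strand, so its level may include reads of a neighbour. *Rab23*, which acts in planar cell polarity in flies and in Hedgehog signalling in mammals, had 4.15 to 5.94 FPKM in control and 4.40 to 5.28 FPKM in knockdown larvae, and its log2 fold change was -0.01 (95% interval of the fold 0.759 to 1.30).

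The regulators caught by the symbol rule act on Rab3. *Rab3-GEF*, which loads Rab3 with GTP, had 1.62, 1.33 and 1.59 FPKM in control libraries, against 2.02, 2.06 and 1.84 FPKM in knockdown libraries. Its groups did not overlap, as for *Rab3* itself, and knockdown libraries lay above all controls in 28.8% of all tested genes. The log2 fold change was 0.37 (limma, 95% interval of the fold 0.998 to 1.66), which did not pass. It was 0.19 after median-of-ratios scaling. *Rab3-GEF* shares 5.29% of its exon bases with *Cyp4s3* on the other strand, which had 16.9 to 24.8 FPKM, so reads of that gene may be part of these values if strand was not used in counting. *Rab3-GAP*, which acts in synaptic homeostasis at the larval neuromuscular junction, had 5.17, 5.75 and 3.89 FPKM across controls, against 5.92, 5.05 and 4.87 FPKM in knockdown libraries. Its groups overlapped, and the sign of its log2 fold change of 0.11 turned to -0.07 under median-of-ratios scaling and to -0.10 under quantile normalization.

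The other 7 members did not pass the filter and were nearly silent. They are *Rab9D*, *Rab9Db*, *Rab9E*, *Rab9Fa*, *Rab9Fb*, *RabX2* and *RabX5*, and the highest value of any of them in any library was 0.07 FPKM. Of these genes, 6 lie on X and have a single exon each, while *RabX5* lies on 3L and has 6 exons. *Rab9D* was listed at 0 in all libraries, and *Rab9E* was listed above 0 only in control replicate 4, at 0.04 FPKM. The other 5 were listed at 0 in all controls and above 0 in at least 1 knockdown library, among them *Rab9Fb* at 0.07, 0.04 and 0.04 FPKM and *Rab9Fa* at 0.02, 0.04 and 0.04 FPKM in knockdown libraries. Values this low may stand for single reads, a listed 0 can be a failed estimate, and no fold was computed. The file gives the same best protein match for *Rab9D*, *Rab9E* and *Rab9Fa*, so reads could also have been shared among these copies.

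Members on the X chromosome had a higher median fold change than the others, a pattern chosen after the values had been seen and given without a test. The 8 tested X-linked members, among them *Rab21*, *Rab40* and *Rab10*, all had positive log2 fold changes with a median of 0.36, or 0.18 after median-of-ratios scaling. The 20 members on autosomes had a median of 0.14, or -0.04 after scaling. Over all 1569 tested genes of X the median was 0.19, or 0.02 after scaling, and 79.2% were positive, beside 74.2% of all tested genes.

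Genes that act on Rabs or with them had a median close to that of all tested genes. Lists were drawn up for GEFs, GAPs, prenylation and membrane extraction, effectors with tethers and motor links, and the membrane fusion machinery. Together they held 112 genes of the table that are not members, of which 110 were tested, and their median log2 fold change was 0.21 (0.03 after median-of-ratios scaling). By adjusted p, 3 of the 110 genes were higher and 0 lower, whereas 5.06% and 1.65% of all tested genes were called in these directions, and 24 were higher by unadjusted p under 0.05 (limma), beside 20.9% of all tested genes. *wkd*, a GAP of the TBC family that acts on Rab35 in fly tracheal cells, had 18.1, 17.5 and 16.5 FPKM in control libraries, against 26.6, 26.01 and 24.4 FPKM in knockdown libraries (log2 fold change 0.56, limma, adjusted p = 0.0244). *btsz*, a synaptotagmin-like protein whose mammalian relatives bind Rab27, had 19.5, 18.04 and 16.7 FPKM across controls, against 25.99, 28.6 and 27.6 FPKM in knockdown libraries (log2 fold change 0.60, limma, adjusted p = 0.0240). *temp*, which is needed for the prenylation of Rabs in flies, had 3.94, 3.73 and 3.99 FPKM against 5.19, 5.79 and 6.19 FPKM (log2 fold change 0.54, limma, adjusted p = 0.0495). The groups did not overlap in any of these genes, and after median-of-ratios scaling 0 of the 110 genes passed, with 9 at an unadjusted p under 0.05 (limma), beside 1955 of all 9978 tested genes, and adjusted p-values of 0.0647 for *wkd*, 0.0782 for *btsz* and 0.209 for *temp*. Among the fits that left out 1 library, 0 of the 110 genes passed without control replicate 2 or 4 or without any single knockdown library, with 7 to 22 at an unadjusted p under 0.05, beside 1661 to 2274 of all 9978 tested genes, and 2 passed without control replicate 3, *wkd* and *btsz*.

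Among the lists, the 20 tested GEFs had a median log2 fold change of 0.15, with 0 passing by adjusted p and 1 at an unadjusted p under 0.05 (limma). The largest were *Rich*, a Rab6 GEF subunit, at 0.32 and *Rabex-5*, a Rab5 GEF, at 0.32. The 16 GAPs had a median of 0.16 and the 5 genes of prenylation and membrane extraction one of 0.14. In the last list, *Gdi*, the GDP dissociation inhibitor, was highest, with 129, 134.5 and 96.4 FPKM in control libraries, against 131, 114 and 102 FPKM in knockdown libraries, so that the groups overlapped. *betaggt-II*, a subunit of the Rab geranylgeranyl transferase, had 9.16, 8.39 and 7.08 FPKM against 13.4, 12.9 and 9.41 FPKM, without overlap (log2 fold change 0.52, limma, adjusted p = 0.112). The 42 effectors, tethers and motor links had a median of 0.21. The 30 genes of membrane fusion had the highest median, 0.27 (0.09 after median-of-ratios scaling), with 0 passing by adjusted p and 9 higher at an unadjusted p under 0.05 (limma), beside 20.9% of all tested genes. Its largest value was that of the syntaxin gene *Syx4*, at 0.68. Of the genes that carry the term vesicle-mediated transport in the file, 88 non-members were tested, some of them also in these lists, and their median was 0.17.

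**Figure D4:**
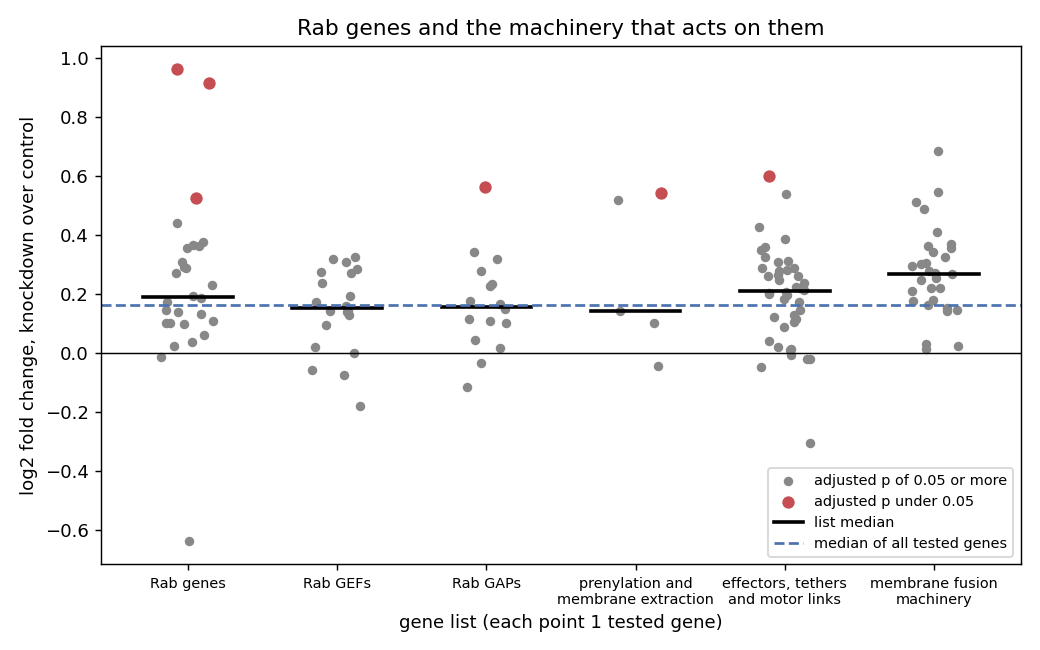
Log2 fold change, knockdown over control, of each tested gene of the Rab family and of 5 lists of Rab machinery, with the median of each list (bar) and of all tested genes (dashed line at 0.16). Medians run from 0.14 to 0.27, and the coloured points are the 3 Rab genes and 3 other genes with an adjusted p under 0.05.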

How the data were processed

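RNA from whole female larvae was sequenced in 3 *Dctn1* knockdown and 3 driver control libraries. The authors used SOAPnuke to filter reads, HISAT2 to map them and RSEM for quantification, and deposited 1 FPKM column for each library. The genome build and tool versions are not given in the sources used here, and the submitters' processing notes also name StringTie, Cufflinks and GATK. Log2(FPKM + 0.1) of the 9978 genes with a mean of at least 0.5 FPKM was fitted with limma version 3.58.1 (R version 4.3.3), with trended and robust variance, the condition as the only term and Benjamini-Hochberg adjustment over all genes. The code was tested on simulated data with planted log2 fold changes of 0.5, 1, 2 and 3. Of 50 planted genes at each size, 3, 24, 42 and 48 were recovered, so changes of 0.5 were mostly missed. Named genes were all members, *Dctn1*, list genes that passed, and some of those with the largest changes. *Gdi* was added after its values were seen, and some marker and overlapping genes are named outside this rule. Members and lists were chosen with earlier results of these data known. Positions are from the BDGP6.54 annotation, to which all 35 members were matched. Alternatives were pseudocounts of 1 and 0.01, no filter or a mean of at least 5 FPKM, median-of-ratios and quantile scaling, plain variance, the replicate number as a block, and each library left out. A planned comparison of protein sequences was not made.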

Additional observations from a re-analysis of the deposited data

How the results depend on the processing

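Of the 28 tested Rab genes, 3 passed at an adjusted p under 0.05 (limma), and 1, *Rab21*, passed after median-of-ratios scaling and after quantile normalization. Without single libraries, 1 to 3 passed, with 1 in the fits without control replicate 2 and without knockdown replicate 1 or 2. Of the 110 list genes, 3 passed, with 0 after median-of-ratios scaling, 1 after quantile normalization and 0 to 2 without single libraries. After median-of-ratios scaling, 9 of them had an unadjusted p under 0.05 (limma), beside 1955 of all 9978 tested genes. Over all genes, 670 passed, with 364 without a filter on low values, 321 after median-of-ratios scaling, 315 after quantile normalization and 265 to 458 without single libraries. *Rab21* passed in all 14 alternatives. Depth is unknown, which limits what can be said of the least abundant members.

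With the replicate number as a block, 3 Rab genes passed, of which *Rab32* was new with a log2 fold change of -0.94 and *Rab40* was lost, and 1 list gene passed, *Syx4*. The groups share only the numbers 2 and 3, whose deviations correlated at 0.40 and 0.14, while pairs with different numbers reached from -0.62 to 0.63, and nothing in the labels ties them to a shared batch. The share of higher genes among all called was 75.4%, and 51.3% with the block, 50.2% after median-of-ratios scaling and 53.97% after quantile normalization.

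Signs that turned belong to members that did not pass. After median-of-ratios scaling, the log2 fold change was -0.14 for *Rab1*, -0.0342 for *Rab11*, -0.0494 for *Rab14*, -0.0781 for *Rab2*, -0.0684 for *Rab3-GAP*, -0.0067 for *Rab4*, -0.12 for *Rab5*, -0.0803 for *Rab6*, -0.16 for *Rab7*, -0.08 for *Rab8* and -0.0349 for *RabX6*. After quantile normalization, it was -0.10 for *Rab3-GAP*, -0.0067 for *Rab7* and -0.10 for *RabX6*. With the replicate block, it was -0.12 for *Rab1*, -0.0594 for *Rab2*, -0.13 for *Rab3-GAP*, -0.0207 for *Rab5*, -0.13 for *Rab7*, -0.0796 for *RabX1* and -0.0341 for *RabX6*. Without single libraries, it ranged from -0.056 to 0.12 for *Rab1*, from -0.14 to 0.11 for *Rab23*, from -0.0506 to 0.23 for *Rab3-GAP*, from -0.0048 to 0.14 for *Rab5*, from -0.0694 to 0.10 for *Rab7* and from -0.0274 to 0.37 for *RabX1*. Median-of-ratios scaling divided control libraries by factors of 0.854 to 0.992 and knockdown libraries by factors of 1.03 to 1.12. It thus lowered the log2 fold change of every tested member by construction. The cause of the other shifts was not tested.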
